A study of Mus musculus with 2 samples.

Results

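Conventional CD4 T cells, the helper T cells that are not regulatory, made up 79 of the 11246 cell barcodes in single-cell libraries of mouse tumours. Members were chosen by their UMI counts: a barcode was taken when it held at least 1000 UMIs (unique molecular identifiers, each standing for 1 counted RNA molecule), at least 1 UMI of Cd4 and at least 2 summed over the CD3 genes Cd3e, Cd3d and Cd3g. It also had to hold 0 UMIs of the CD8 genes Cd8a and Cd8b1, 0 of the regulatory T cell factors Foxp3 and Ikzf2, 0 of the macrophage genes Csf1r, Adgre1 and Fcgr1, and at most 1 summed over Tcf7 and Lef1, factors of naive and memory T cells. The rule therefore fixed the levels of these genes, and they are no finding here. The libraries were made from tumour-infiltrating cells of otherwise untreated mice, 21 days after engraftment of MC38, a colorectal cancer line of the mouse. One set of tumours came from vector control cells and the other from cells in which TMEM16F had been knocked out, and each set gave 1 library. TMEM16F is the calcium-activated phospholipid scramblase encoded by Ano6. The knockout was in the engrafted cells, so the T cells of the mouse carried no labelled deletion in either library. The sources used here do not give the strain, the age or the number of mice behind a library, nor whether the edited cells were 1 clone.

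CD4 T cells read antigen presented on MHC class II molecules and act mainly through signals to other cells. The ligand CD40L (Cd40lg) licenses dendritic cells, B cells and macrophages through CD40, and secreted cytokines divide helper cells into classes: interferon gamma (Ifng) under the factor T-bet (Tbx21) marks Th1 cells, and interleukins 4 and 13 under Gata3 mark Th2 cells. In tumours, regulatory T cells are often a large share of CD4 cells, which is why the remainder is described separately here.

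The TMEM16F KO library held 52 members and the vector control library 27. The rule narrowed barcodes in similar steps: of 5655 and 4770 barcodes with at least 1000 UMIs, 338 and 239 had a Cd4 UMI, 281 and 189 also met the CD3 limit, 209 and 149 had no CD8 UMI, and 86 and 50 had neither Foxp3 nor Ikzf2. Just inside the rule, 30 and 11 members had exactly 1 Cd4 UMI, and 8 and 6 had their 1 permitted UMI of Tcf7 or Lef1. Just outside, 133 and 112 barcodes met every limit except that for Cd4, 8 and 4 had at least 2 UMIs of Tcf7 and Lef1, and 8 and 6 had a single UMI of the 3 macrophage genes. Members made up 0.920% (0.687 to 1.20) of barcodes with at least 1000 UMIs in the TMEM16F KO library and 0.566% (0.373 to 0.822) of those in the vector control library, with a ratio of 1.62 (1.00 to 2.69). Among barcodes that met the CD3 limit, the shares were 2.32% of 2244 and 1.63% of 1656, a ratio of 1.42 (0.876 to 2.35), so with T cells as the base the counting interval of the ratio included 1. Intervals are at 95%: Clopper-Pearson for shares, exact Poisson for levels and conditional binomial for ratios. Each group is a single library, so no replicate check exists and no test was run, and a difference between the libraries cannot be told apart from one between tumours or cell preparations. Intervals cover counting error only, and cells of a library are not replicates.

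Members were shallow, with a median of 2976 UMIs and 1318.5 genes in the TMEM16F KO library and 3782 UMIs and 1447 genes in the vector control library. One vector control member stood apart, with 60418 UMIs and 6583 genes against 14382 UMIs in the next deepest, and so held 33.0% of all UMIs of the vector control members. In the plot of depth by barcode it rises above all others, while the deepest TMEM16F KO member had 10710 UMIs. That barcode met the rule with 4 Cd4 and 19 CD3 UMIs but held all 13 Sparc UMIs and 21 of the 22 Bgn UMIs of the vector control members, both genes of matrix-producing stroma, and 147 of 175 Ube2c UMIs, 51 of 53 Hmga1 UMIs and 871 of 1080 S100a6 UMIs. It held 0 UMIs of Cd40lg and Ifng. Its T cell receptor UMIs were few for its depth, with 2 of Trac, 16 of Trbc1 and 5 of Trbc2. The other 26 vector control members held 120, 69 and 157. It thus carried stroma and cell division transcripts beside T cell transcripts, and the doublet score did not place it among the barcodes it left out. Vector control levels include this barcode unless said otherwise, and the main ratios and list medians are also given without it. The libraries together had 10425 barcodes of at least 1000 UMIs (10782 cells are stated in the series' design), and 10 barcode sequences occurred in both libraries, none of them a member's.

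**Figure D1:**
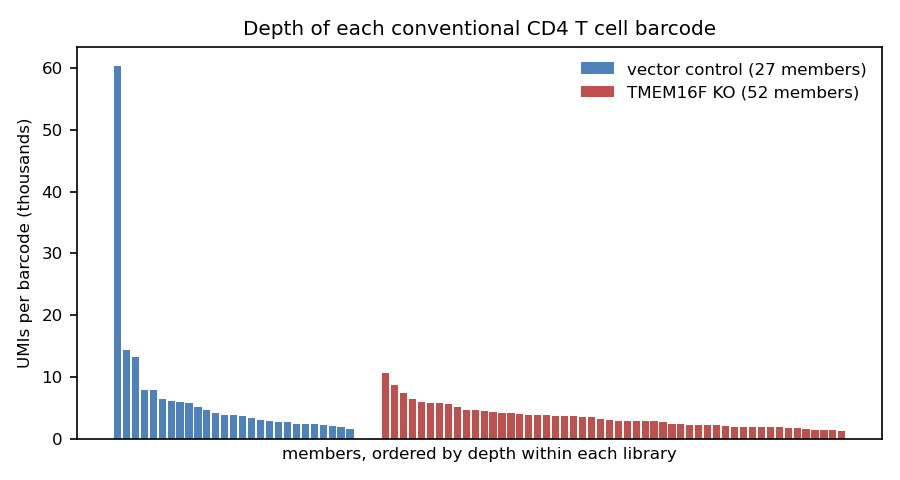
UMIs of each of the 79 members, on an axis in units of 1000 (bars, ordered within each library; blue, 27 vector control members; red, 52 TMEM16F KO members). 1 vector control barcode reaches 60418 UMIs, and the next deepest member of either library has 14382.

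The defining markers of helper T cells were present in the group as a whole. Cd40lg (ENSMUSG00000031132, chromosome X, positions 57212143 to 57224042, plus strand, GRCm38), which the rule did not use, stood at 241 CPM (counts per 1000000 UMIs summed over members; 175 to 324) in the TMEM16F KO library, with a UMI in 18 of 52 members. In the vector control library it stood at 49.2 CPM (22.5 to 93.4), or 73.5 CPM without the deepest barcode, with a UMI in 6 of 27 members. For comparison, 3 sets of barcodes were drawn from the same libraries by fixed counts. The regulatory gate required Foxp3 and CD3 without CD8 (129 TMEM16F KO and 101 vector control barcodes), the CD8 gate required CD8 and CD3 without Cd4 or Foxp3 (768 and 609), and the phagocyte gate required macrophage genes without CD3 (1272 and 1161). Cd40lg stood at 3.25 and 3.35 CPM in the regulatory gate, at 3.84 and 1.69 CPM in the CD8 gate, and at 0.143 and 0 CPM in phagocytes. The T cell receptor constant genes were read in nearly all members: Trac had a UMI in 44 of 52 and 26 of 27, and Trbc2 in 46 and 24. Markers of other lymphocytes, neutrophils and dendritic cells had few UMIs. The 7 NK cell markers summed to 11 and 13 UMIs, in 8 of 52 and 5 of 27 members. The 6 counted gamma delta and NKT cell markers summed to 1 and 1, and 43 and 21 members had no UMI of either kind. The 5 B cell markers summed to 0 and 3, the 5 neutrophil markers to 3 and 1, and the 9 dendritic cell markers to 1 and 11. All 11 of the latter were in the deepest barcode.

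Phagocyte RNA was present in nearly every member, although the rule removed barcodes with the 3 macrophage genes it named. All 52 TMEM16F KO members and 23 of 27 vector control members had a UMI of Lyz2, the lysozyme of macrophages and neutrophils. The 12 macrophage markers summed to 4779 CPM in TMEM16F KO members and 1995 CPM in vector control members (2563 without the deepest barcode), against 45219 and 34781 CPM in the phagocyte gate. The CD8 gate held them at 4192 and 2649 CPM and the regulatory gate at 3861 and 2445 CPM. Members thus lay close to the CD8 and regulatory gates of their own library. Barcodes that met every limit except that for Cd4 held more of these markers, at 8858 and 5575 CPM. The TMEM16F KO library was the higher of the pair in each of these sets. The part of this RNA in the results below was not tested, except where phagocytes are at or near 0.

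Of 856 genes with at least 50 UMIs over the members (rule genes and the deepest barcode left out), 12 stood at least 2-fold higher in members than in both the regulatory and the CD8 gate, in both libraries, which is 1.4% of those tested. Genes scarce in members could not enter this count, so nothing is read from the number that stood lower. The 12 were chosen after their values were seen and are a description of the gate. They were the helper ligands and cytokines Cd40lg, Tnfsf11, Lta and Csf2, the calcitonin gene Calca, whose other product is the neuropeptide CGRP, the galectin Lgals7, the secreted factor Igfbp7, the viral RNA sensor Ifih1, the interferon-induced Ifitm3, Arl15, and the stress and immediate early genes Dnajb1 and Fos. Fos stood at 1876 and 1404 CPM and Dnajb1 at 499 and 457 CPM, in the TMEM16F KO and the vector control library without the deepest barcode. Lgals7, an epithelial galectin, had 214 CPM in 11 TMEM16F KO members and 284 CPM in 8 vector control members (416 without the deepest barcode), against 4.85 to 17.9 CPM in the regulatory and CD8 gates.

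Tnfsf11 and Lta belong to the genes that set members apart from both gates, and Ifng is the cytokine that defines Th1 cells, so the 250 bases upstream of each RefSeq start site are shown (GRCm38.p6, 5′ to 3′ on the gene's own strand). Capitals mark GGAAA on either strand, the core of binding sites of NFAT, the factor that the T cell receptor activates through calcium. Tnfsf11 lies at chr14:78308044-78308293 (minus strand), Lta at chr17:35205352-35205601 (minus strand) and Ifng at chr10:118440796-118441045 (plus strand).
Tnfsf11: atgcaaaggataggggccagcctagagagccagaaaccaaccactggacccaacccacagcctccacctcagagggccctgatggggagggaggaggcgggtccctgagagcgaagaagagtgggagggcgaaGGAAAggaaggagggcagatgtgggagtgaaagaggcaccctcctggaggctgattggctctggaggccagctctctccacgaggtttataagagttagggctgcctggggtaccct
Lta: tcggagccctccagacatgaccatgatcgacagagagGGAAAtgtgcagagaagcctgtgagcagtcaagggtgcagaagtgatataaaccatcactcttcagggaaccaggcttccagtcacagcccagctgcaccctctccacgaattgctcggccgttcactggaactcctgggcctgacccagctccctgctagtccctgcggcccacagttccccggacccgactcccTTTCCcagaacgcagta
Ifng: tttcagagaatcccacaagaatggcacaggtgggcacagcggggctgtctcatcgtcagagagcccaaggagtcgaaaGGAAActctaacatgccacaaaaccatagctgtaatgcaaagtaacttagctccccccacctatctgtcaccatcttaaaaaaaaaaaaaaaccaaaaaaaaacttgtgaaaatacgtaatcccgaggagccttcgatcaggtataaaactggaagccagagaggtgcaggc
GGAAA occurred once in the Tnfsf11 window, 2 times in that of Lta and once in that of Ifng. Of 32851 promoters of the same length, 55.6% held it at least once, so its presence does not set these 3 apart. TATAAA, the core of the TATA box, occurred on either strand in each of the 3 windows and in 12.4% of all promoters. TGANTCA, the site of the AP-1 factors Fos and Jun, occurred in none of the 3 and in 6.75% of all promoters. No reading of binding follows from these letters.

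Tnfsf11, which encodes RANKL, a ligand that acts on dendritic cells and osteoclast precursors, was read in close to the same share of members in both libraries. It stood at 549 CPM (446 to 667) with a UMI in 24 of 52 TMEM16F KO members, and at 230 CPM (165 to 310; 343 without the deepest barcode) with a UMI in 12 of 27 vector control members. The log2 ratio was 1.26 with all members. Leaving out members with a UMI of an NK, gamma delta or NKT marker, and with them the deepest barcode, gave -0.0074. Regulatory barcodes held Tnfsf11 at 22.8 and 11.7 CPM, CD8 barcodes at 102 and 79.3 CPM, and phagocytes at 1.58 and 0.411 CPM. Both libraries thus had it well above these gates. The barcodes with at least 2 UMIs of Tcf7 and Lef1 were nearer to members. A UMI of Cd40lg, Tnfsf11 or the chemokine Ccl1 was present in 5 of 8 and 3 of 4 of them, against 34 of 52 and 14 of 27 members. When each cell was thinned to 1000 UMIs, the share of members with a Tnfsf11 UMI was 25% and 22.2%, against 46.2% and 44.4% before thinning. In phagocytes, of median depth 10010.5 and 12061 UMIs, the thinned share was 0.157% and 0.172%.

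Csf2, which encodes GM-CSF, a growth factor of macrophages and granulocytes, was concentrated in few cells. It had 81 UMIs in 5 TMEM16F KO members, 40 of them in 1 member, and 23 UMIs in 9 vector control members. Ccl1, a chemokine that attracts Ccr8-bearing cells, had 174 UMIs in 12 TMEM16F KO members and 66 UMIs in 7 vector control members. At 955 and 361 CPM (539 without the deepest barcode) it exceeded the regulatory gate (9.75 and 3.35 CPM), but the CD8 gate of the vector control library stood at 453 CPM, so it did not meet the 2-fold limit in both libraries. Lta, the cytokine lymphotoxin alpha, had 10 UMIs in 8 TMEM16F KO members and 74 UMIs in 7 vector control members, of which 67 came from 1 member. Ltb, the membrane partner of lymphotoxin alpha, had a UMI in 46 of 52 and 22 of 27 members and stood at 807 and 590 CPM (857 without the deepest barcode), below the 927 and 929 CPM of the regulatory gate. Il2, the T cell growth factor, had 0 UMIs in TMEM16F KO members and 14 in vector control members, all in 1 barcode.

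**Figure D2:**
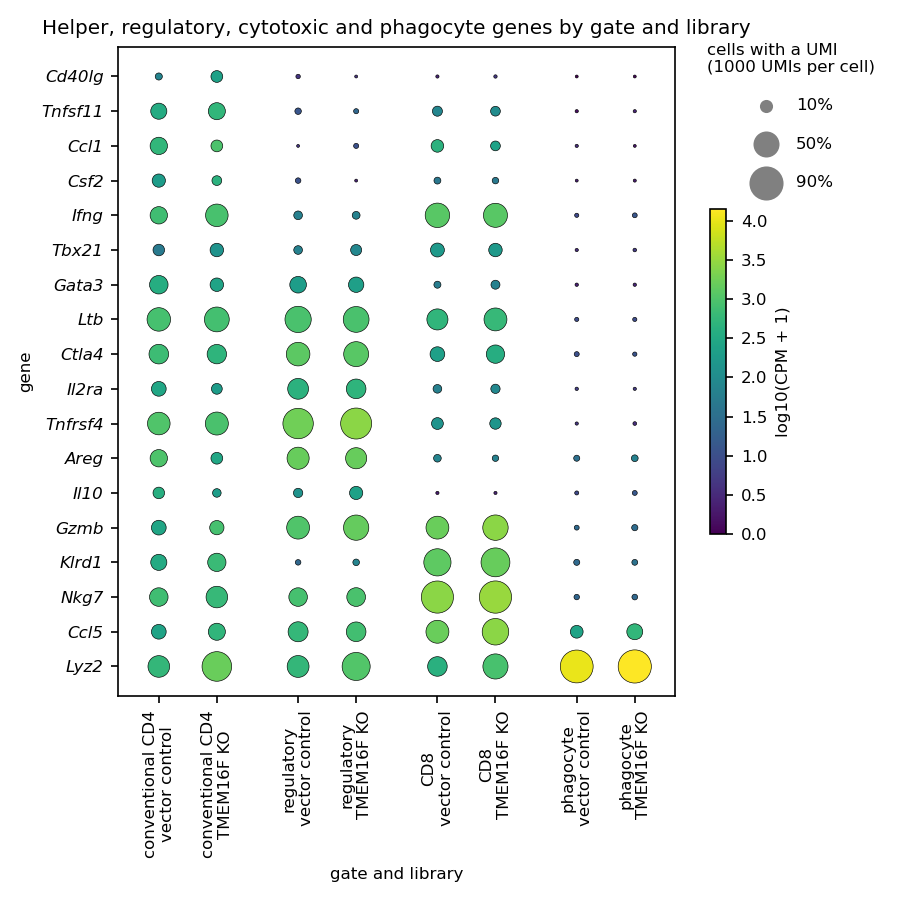
Share of barcodes with a UMI after thinning to 1000 UMIs per cell (dot size) and level as log10(CPM + 1) (colour) of 18 genes (rows) in the conventional CD4, regulatory, CD8 and phagocyte gates of both libraries (columns); the colour of the vector control conventional CD4 column leaves out the deepest barcode. Cd40lg, Tnfsf11 and Csf2 are highest in the conventional CD4 columns, Tnfrsf4 and Areg in the regulatory columns, Klrd1 and Nkg7 in the CD8 columns and Lyz2 in the phagocyte columns.

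Th1 genes were read in many members of both libraries. Ifng had a UMI in 31 of 52 TMEM16F KO members and 10 of 27 vector control members, and Ifng or Tbx21 in 36 members (69.2%, 54.9 to 81.3) and 13 members (48.1%, 28.7 to 68.1). The same pair was seen in 37.2% and 31.7% of regulatory barcodes, in 90.8% and 91.5% of CD8 barcodes and in 10.5% and 8.96% of phagocytes. Ifng stood at 894 CPM (762 to 1043) in TMEM16F KO members and at 508 CPM (410 to 623) in vector control members, a ratio of 1.76 (1.36 to 2.29). Without the deepest barcode, which had none, the vector control level was 759 CPM and the ratio 1.18 (0.908 to 1.54). Among single members Ifng ran from 0 to 77.7 UMIs per 10000 in the TMEM16F KO library (median 4.70) and from 0 to 95.1 in the vector control library (median 0), and 1 vector control member held 39 of its 93 UMIs. The ranges overlapped. The log2 ratio of Ifng with all members was 0.81. When members with UMIs of at least 3 cell cycle genes, among them the deepest barcode, were left out, it was -0.72. Tbx21 had 25 UMIs in 18 members and 6 UMIs in 5 members, a ratio without the deepest barcode of 2.80 (1.12 to 8.35). Of the other Th1 genes, Cxcr6, a receptor that keeps T cells in tissue, stood at 368 and 175 CPM (261 without the deepest barcode), and Bhlhe40, a factor needed for cytokine output of helper cells, at 774 and 328 CPM (457 without it). All 7 measured Th1 genes of 14 were higher in the TMEM16F KO library (median log2 ratio 0.81). Without the deepest barcode 4 of the 7 were, with a median of 0.24, against -0.06 for all genes tested, of which 46.4% were higher (49.0% with that barcode). The Th1 median was -0.032 without members holding NK, gamma delta or NKT markers, and -0.057 without members holding at least 3 cell cycle genes. Both settings also left out the deepest barcode.

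Type 2 cytokines and Calca were read in a small minority in both libraries. At least 1 UMI of Calca, Il13 or Il4 was present in 7 of 52 TMEM16F KO members (13.5%, 5.59 to 25.8) and 4 of 27 vector control members (14.8%, 4.19 to 33.7). The shares were 0.236% and 0.689% in phagocytes, 1.55% and 0.990% in regulatory barcodes and 3.26% and 1.97% in CD8 barcodes. In barcodes that met every limit except that for Cd4 they were 4.51% and 5.36%. Il13 had 12 UMIs in 3 members and 37 UMIs in 4 members, and Il4 had 9 UMIs in 5 and 10 UMIs in 3. Calca had 7 UMIs in 2 TMEM16F KO members and 188 UMIs in 3 vector control members. All 3 of these vector control members also held UMIs of Il13, Il2ra, Areg, Gata3 and Ctla4, and none held Ifng or Cd40lg. Gata3 itself was broader, with a UMI in 30 of 52 and 15 of 27 members, at 252 and 257 CPM (375 without the deepest barcode), near the 210 and 197 CPM of the regulatory gate and above the 63.6 and 54.4 CPM of the CD8 gate.

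Of the follicular helper genes, Cxcr5 and Il21 were near the limit of detection. Cxcr5, the receptor that guides cells to B cell follicles, or Il21, the cytokine of follicular helper cells, was read in 2 TMEM16F KO members and in 0 vector control members. The 13 genes of the follicular helper list, which activated T cells of other classes also express in part, summed to 1180 and 1126 CPM, with a UMI in 46 of 52 and 26 of 27 members. Ccr7, the lymph node homing receptor of naive and central memory cells, had a UMI in 6 and 4 members.

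Tnfsf11 and Gzmb were seldom read in the same member. Of 91 pairs among 14 genes counted cell by cell, the following were picked after their values were seen. Tnfsf11 was read in 1 of the 11 TMEM16F KO members with a Gzmb UMI and in 23 of the 41 without. In the vector control library it was read in 2 of the 10 with Gzmb and in 10 of the 17 without. Il10, an anti-inflammatory cytokine, was read mostly with Gzmb: all 4 TMEM16F KO members with Il10 held Gzmb, as did 3 of the 4 in the vector control library. Cd40lg was read with Tnfsf11 in 9 of 18 TMEM16F KO members and in 6 of 6 vector control members, and with Ifng in 12 of 18 and 2 of 6. Members differ in depth and a missing UMI does not show a missing transcript, so these counts describe detection, and no test was made of them.

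Genes of regulatory T cells were read in members at part of the regulatory level, although Foxp3 and Ikzf2 were held at 0. At this depth a count of 0 does not show a missing transcript, so any regulatory cells among the members could not be told apart. Ctla4, an inhibitory receptor, stood at 510 and 481 CPM (710 without the deepest barcode) against 1200 and 1282 CPM in the regulatory gate. Tnfrsf4, which encodes the costimulatory receptor OX40, stood at 922 and 743 CPM (1037 without it) against 2697 and 1801 CPM. Il2ra, the high-affinity chain of the interleukin 2 receptor, stood at 192 and 191 CPM (286 without it) against 509 and 450 CPM, with a UMI in 13 of 52 and 10 of 27 members. Areg, an epidermal growth factor family ligand, stood at 302 CPM (227 to 393) and 656 CPM (544 to 784), or 979 CPM without the deepest barcode, a level 3.25-fold that of TMEM16F KO members. Its 120 vector control UMIs came from 8 members, 47 of them from 1. Of the 7 measured regulatory genes of 15, 5 were higher in TMEM16F KO members with the deepest barcode and 0 without it (median log2 ratio 0.09 and -0.48), and the first median was -0.03 with the smaller denominator described below.

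Cytotoxic genes were lower in members than in CD8 barcodes. Gzmb, a granzyme, stood at 850 and 186 CPM (278 without the deepest barcode) against 2685 and 1615 CPM in the CD8 gate, and Nkg7, a granule protein, at 615 and 519 CPM (767 without it) against 3304 and 2705 CPM. The difference between the libraries favoured TMEM16F KO members, but unevenly across cells. All 7 measured cytotoxic genes of 15 were higher there (median log2 ratio 1.49), and 4 of 6 without the deepest barcode (1.02), beside 49.0% and 46.4% of all genes tested. Gzmb was 4.58-fold higher (3.14 to 6.84), or 3.06-fold without the deepest barcode, with 78 of its 155 UMIs in 1 member, and the shares of members with a UMI ran the other way, 11 of 52 against 10 of 27. Klrd1, the CD94 chain of NK-type receptors, was 2.96-fold higher (2.06 to 4.33; 1.98-fold without), in 29 of 52 against 10 of 27 members. Fasl, the ligand of the death receptor Fas, had 16 UMIs in 12 TMEM16F KO members and 0 in vector control members, at least 5.35-fold higher, or at least 3.59-fold without the deepest barcode, against a floor of 3 counts summed over the library's members. In phagocytes Fasl stood at 0.645 and 0.616 CPM.

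Over all genes, members differed more between the libraries than larger gates did. Of 1131 genes with at least 50 UMIs over both libraries' members, 151 (13.4%) were at least 2-fold higher in TMEM16F KO members and 81 (7.16%) at least 2-fold lower. Without the deepest barcode, 66 of 943 were higher (7%) and 27 lower (2.86%). In the regulatory gate 0.759% of genes were at least 2-fold higher and 0.955% lower, and in the CD8 gate 0.98% and 0.804%. The split of higher against lower genes among members moved with the denominator. With mitochondrial, ribosomal protein and haemoglobin genes left out of the total and of the genes tested, every log2 ratio shifted by -0.12, and 110 genes were higher and 104 lower. Higher genes were then 51.4% of those past 2-fold, against 65.9% of the same genes with the full total. Without the deepest barcode the shift was -0.058, with 58 higher and 31 lower. The comparison gates hold more cells and UMIs, and the part of the smaller number of cells in the excess among members was not tested.

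By the rule for named genes, the 10 with the ratio bound farthest above 1 were Gzme, Gzmd, Ifitm1, Ctla2a, Serpinb1a, Il1b, Egr1, Penk, Rgcc and Nedd9, and all 10 remained at least 2-fold higher without the deepest barcode. In 4 of them 1 member held over 50% of the TMEM16F KO UMIs: Gzme (80.9%), Gzmd (69.7%), Il1b (62.5%) and Penk (88.5%). The granzymes Gzme and Gzmd had 68 and 89 UMIs in 6 TMEM16F KO members each, against 2 and 5 UMIs in vector control members. Serpinb1a, an inhibitor of granule proteases, had 57 UMIs in 9 members against 6 UMIs in 2, of which the deepest barcode held 5. Ifitm1, an interferon-induced membrane protein, was spread more widely: it stood at 746 CPM in 18 of 52 members against 92.9 CPM in 5 of 27, a ratio of 8.03 (4.83 to 14.2; 8.31 without the deepest barcode). Its ratio was 3.48 in the regulatory gate, 2.73 in phagocytes and 1.10 in the CD8 gate. Ctla2a, a protease inhibitor of activated T cells, stood at 549 against 65.6 CPM (8.36-fold, 4.58 to 16.7; 6.72-fold without it), in 19 and 7 members.

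The 10 genes farthest in the other direction were Ube2c, Calca, Hmga1, Birc5, Lta, 1110038B12Rik, Cenpa, Cks1b, Lgals1 and Npm1. In 8 of them 1 vector control member held over 50% of the UMIs, and in 7 of these it was the deepest barcode. The other such gene was Lta. Calca came from 3 vector control members, and Cenpa, a centromere histone, had 47 UMIs in 8 members against 6 UMIs in 6. Lgals1, a galectin, and Npm1, a nucleolar protein, no longer reached 2-fold without the deepest barcode (ratios 0.515 and 0.643).

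A stricter count, set after these values were seen, kept genes that were at least 2-fold apart under 4 settings: UMIs summed over members or averaged over members as UMIs per 10000, each with and without the deepest barcode. It also required a UMI in at least 25% of the members of the higher library. It left 41 of 834 genes (4.92%) higher in TMEM16F KO members and 7 of 837 (0.836%) lower. All 41 were also on the higher side over all barcodes outside the members, by less (median ratio 1.31, highest 1.94), 39 were in the CD8 gate and 25 in the regulatory gate (median ratios 1.24 and 1.22). Of all genes tested, 52.1% were on the higher side outside the members, 49.6% in the CD8 gate and 49.7% in the regulatory gate. The plot of ratios by gene sets these values side by side, and the difference between gates was not tested.

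**Figure D3:**
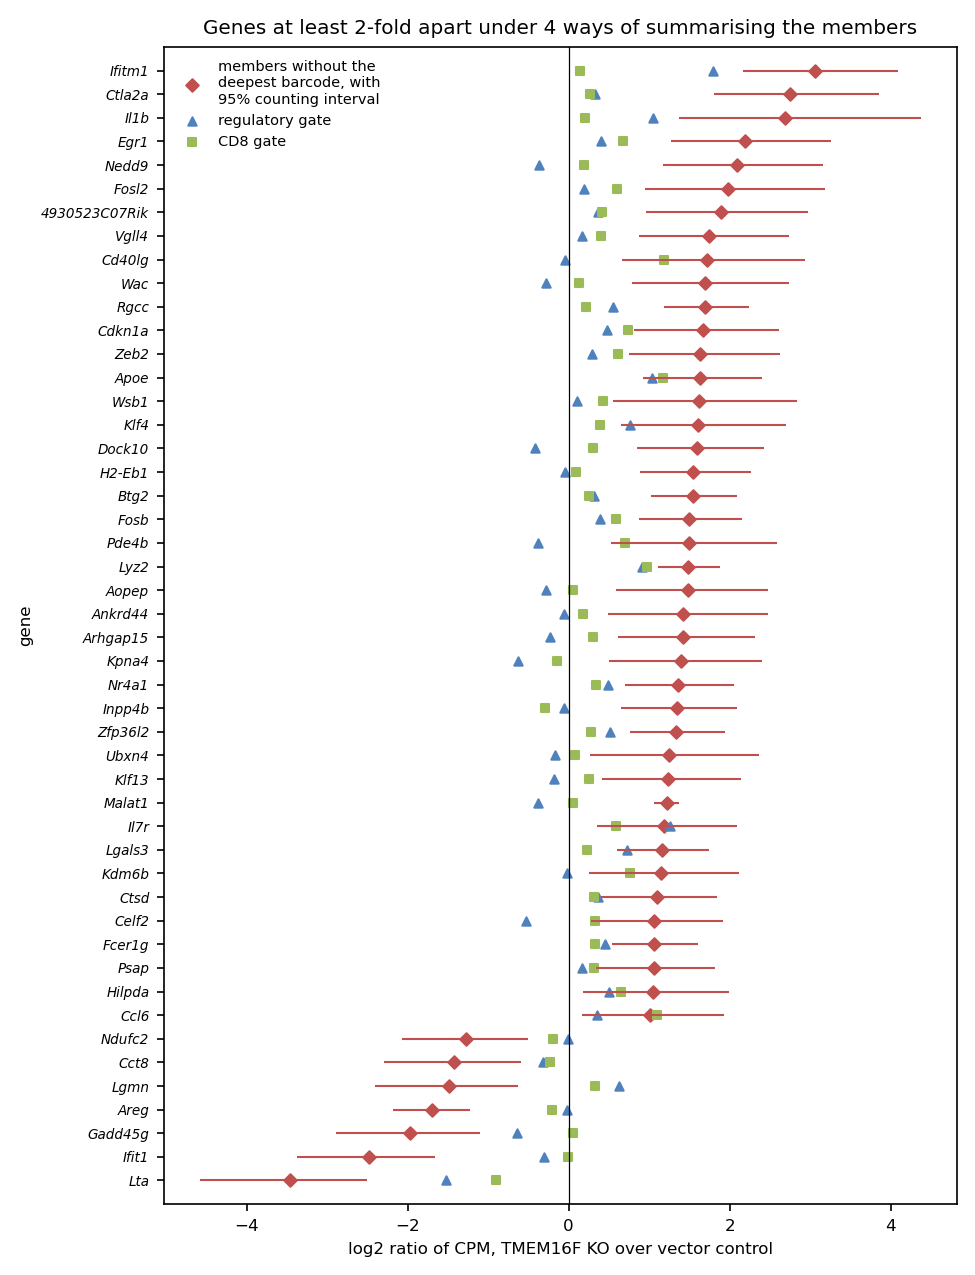
log2 ratio of CPM, TMEM16F KO over vector control, of the 41 genes higher and the 7 genes lower under all 4 settings (rows): members without the deepest barcode with 95% counting intervals (red diamonds and lines), the regulatory gate (blue triangles) and the CD8 gate (green squares). Members lie farther from 0 than the CD8 gate for most of the 41 genes; Il7r in the regulatory gate and Ccl6 in the CD8 gate are exceptions.

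Several of the 41 were immediate early and early response genes, which respond to receptor signals within minutes and also to tissue dissociation. Egr1 stood at 412 against 65.6 CPM (6.27-fold, 3.39 to 12.7; 4.58-fold without the deepest barcode), in 22 of 52 and 7 of 27 members. Fosb, an AP-1 subunit, was 3.91-fold higher (2.81-fold without), Fosl2, another AP-1 subunit, 5.91-fold (3.96-fold), and Nr4a1, a nuclear receptor induced by T cell receptor signals, 3.41-fold (2.55-fold). Btg2, an antiproliferative early gene, stood at 905 against 213 CPM (4.25-fold, 2.98 to 6.19; 2.92-fold without), in 39 and 15 members. Rgcc, a regulator of cell cycle kinases, stood at 1004 against 213 CPM (4.71-fold, 3.32 to 6.84; 3.24-fold without), in 37 and 15 members. Junb, an AP-1 subunit, was 3.06-fold higher (2.70 to 3.47; 2.14-fold without) but missed the 2-fold limit when averaged over members.

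Junb ran from 0 to 256 UMIs per 10000 in TMEM16F KO members (median 49.4) and from 0 to 98.5 in vector control members (median 22.9). Of 17 immediate early and dissociation genes, all measured, 13 were higher in TMEM16F KO members with and without the deepest barcode (median log2 ratio 0.96 and 0.43), beside 49.0% and 46.4% of all genes tested. With UMIs per 10000 averaged over members, the deepest barcode included, the median was only 0.10. In the regulatory gate 12 of the 17 were higher (median 0.29) and in the CD8 gate 12 (median 0.25). Of all genes tested in these gates, 49.7% and 49.6% were higher. The part of cell preparation in these values was not tested.

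Malat1, a long nuclear RNA, was the most abundant of the 41. It stood at 8422 CPM (8006 to 8854) in TMEM16F KO members and 2580 CPM (2353 to 2824) in vector control members, 3.26-fold (2.94 to 3.63), or 2.33-fold without the deepest barcode. Among single members it ran from 0 to 413 UMIs per 10000 (median 31.7) and from 0 to 380 (median 10.8), so the medians differed while the ranges overlapped. Its ratio was 0.769 in the regulatory gate, 1.04 in the CD8 gate and 1.54 in phagocytes. Mitochondrial RNA, often used as a mark of damaged cells, was low in members of both libraries (median 0.056% and 0.0688% of UMIs, highest 10.6% and 1.47%). It was also low over all barcodes with at least 1000 UMIs (median 0.0820% and 0.0682%), so it does not set members apart.

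**Figure D4:**
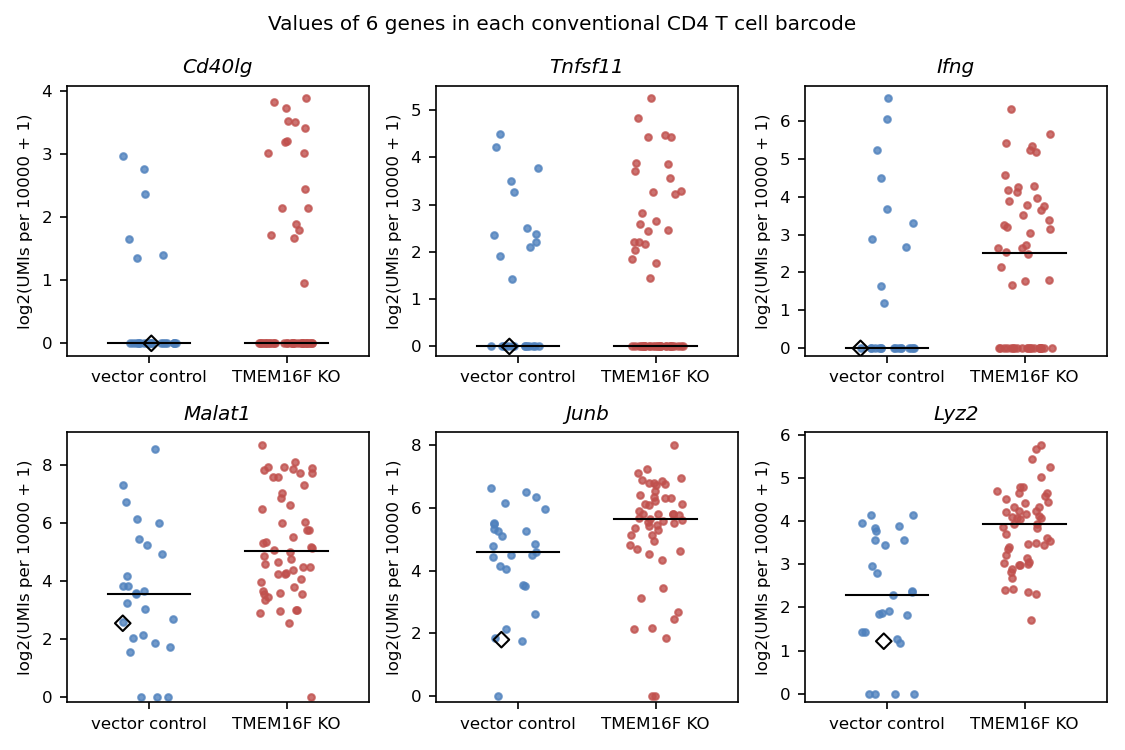
log2(UMIs per 10000 + 1) of 6 genes in each member (points; blue, 27 vector control; red, 52 TMEM16F KO), with the median of all members of a library (black line) and the deepest vector control barcode (open diamond). Cd40lg and Tnfsf11 have a median of 0 in both libraries, Lyz2 has a UMI in all 52 TMEM16F KO members, and the libraries overlap for every gene.

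Cd40lg, Il7r, Cdkn1a and Zeb2 were also among the 41. Cd40lg was 4.91-fold higher in TMEM16F KO members (2.36 to 11.4), or 3.29-fold without the deepest barcode (1.58 to 7.66), from 44 UMIs in 18 members against 9 UMIs in 6. After thinning, 11.5% against 3.70% of members had a Cd40lg UMI, and no phagocyte did. Il7r, the receptor of the survival cytokine interleukin 7, was 3.19-fold higher (1.82 to 5.87; 2.27-fold without), in 27 and 11 members, with a ratio of 2.39 in the regulatory gate. Cd69, an early activation and tissue retention marker outside the 41, was 2.98-fold higher (2.04 to 4.46; 2.05-fold without). Cdkn1a, the cell cycle inhibitor p21, was 4.42-fold higher (3.17-fold without), and Zeb2, a factor of effector T cells and macrophages, 4.30-fold (3.1-fold without).

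Some of the 41 are abundant in phagocytes, among them Lyz2. It stood at 1602 against 426 CPM (3.76-fold, 2.92 to 4.89; 2.80-fold without the deepest barcode). It ran from 2.29 to 53.2 UMIs per 10000 in TMEM16F KO members (median 14.3) and from 0 to 16.5 in vector control members (median 3.89). Its ratio was 1.89 in the regulatory gate, 1.97 in the CD8 gate and 1.39 in phagocytes, where it stood at 14245 and 10225 CPM. Apoe, a lipid carrier of macrophages, was 3.69-fold higher in members (3.09-fold without), and Fcer1g, Ctsd, Psap, Lgals3, Ccl6 and Il1b, which phagocytes also express, were among the 41. The direction was not shared by all such genes: Lgmn, a lysosomal protease, was among the 7 lower genes, at 98.8 against 208 CPM (ratio 0.475, or 0.356 without the deepest barcode), and stood at 873 and 884 CPM in phagocytes. Of the 12 macrophage markers 8 were measured and all 8 were higher (median log2 ratio 0.99), 7 of them without the deepest barcode (0.60). All 4 measured MHC class II genes of 7 were higher too, with a median of 1.14 and of 1.05 without the deepest barcode, against -0.34 in the regulatory gate and -0.05 in the CD8 gate. Of all genes tested, 49.0% were higher with that barcode and 46.4% without it. In TMEM16F KO members, 1 member held 122 of the 473 UMIs of the 7 class II genes. Barcodes that met every limit except that for Cd4 also held more in the TMEM16F KO library, at 12400 against 7280 CPM summed over the 7. H2-Eb1 stood at 549 and 202 CPM (188 without the deepest barcode), against 4392 and 4130 CPM in phagocytes.

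The 7 genes lower in TMEM16F KO members under all 4 settings were Areg, Cct8, Gadd45g, Ifit1, Lgmn, Lta and Ndufc2. Ifit1, an interferon-induced antiviral protein, had 16 UMIs in 5 members against 60 UMIs in 8, a ratio of 0.268 (0.144 to 0.471; 0.179 without the deepest barcode), with ratios of 0.807 and 0.998 in the regulatory and CD8 gates. Isg15, a ubiquitin-like interferon-stimulated protein, was lower as well, at 565 against 924 CPM (1363 without the deepest barcode), in 23 of 52 and 18 of 27 members. Of 19 interferon-stimulated genes 6 were measured, 4 of them lower (median log2 ratio -0.44, and -0.90 without the deepest barcode, where 4 of 5 were lower). Of all genes tested, 577 of 1131 were lower, and 505 of 943 without that barcode. The same list leaned higher in the CD8 gate (16 of 19 higher, median 0.44) and the phagocyte gate (17 of 19, 0.39). In the regulatory gate 9 of 16 were higher (0.10). Gadd45g, a stress-induced gene of activated T cells, had 16 UMIs in 12 members against 53 in 10.

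Cell cycle genes were lower in TMEM16F KO members with and without the deepest barcode, but few were measured. All 6 measured of 20 were lower (median log2 ratio -1.72), and all 3 measured without the deepest barcode (-1.07). UMIs of at least 3 cell cycle genes were present in 19 of 52 TMEM16F KO members (36.5%, 23.6 to 51.0) and 14 of 27 vector control members (51.9%, 31.9 to 71.3), and the same count was lower in the TMEM16F KO library for regulatory barcodes (54.3% against 70.3%), CD8 barcodes (67.2% against 77.3%) and phagocytes (71.0% against 81.1%). The median depth of members and of each of these gates was also lower in that library. Glycolysis genes were lower in 6 of 7 measured (median -0.52, and -0.50 without the deepest barcode), with Gapdh, a glycolytic enzyme, at 2354 against 3378 CPM (3485 without it). The regulatory gate had a median of -0.47 for the same list and the CD8 gate 0.07.

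**Figure D5:**
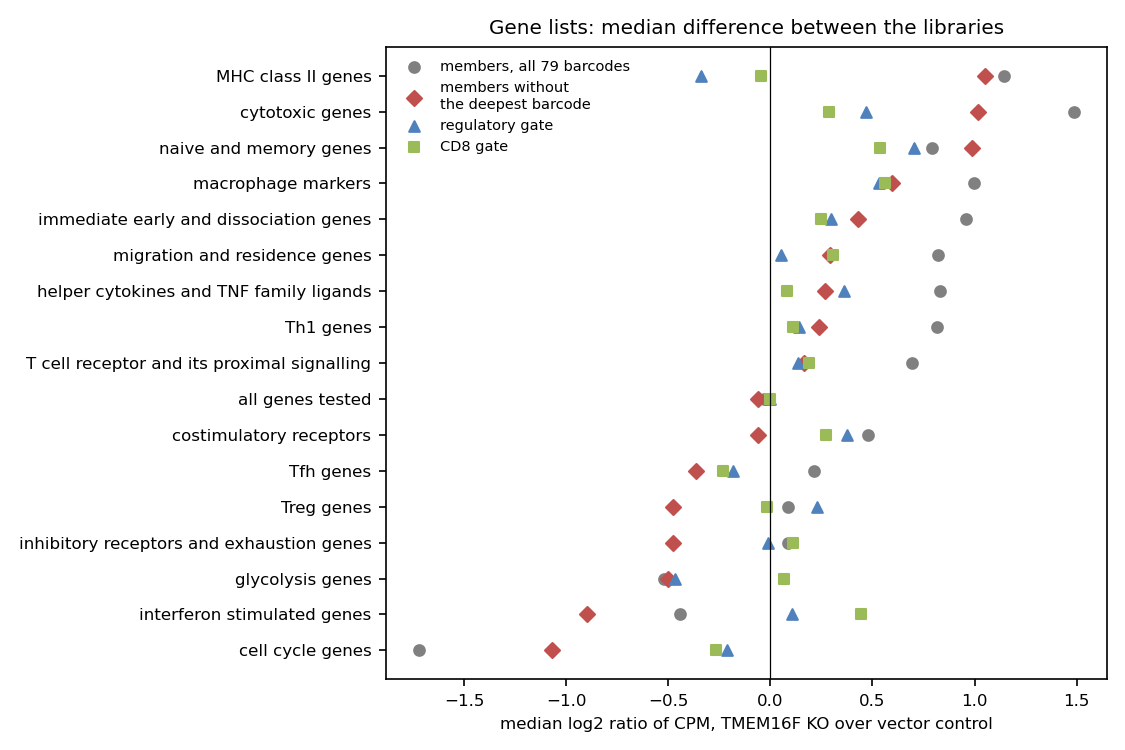
Median log2 ratio of CPM, TMEM16F KO over vector control, of each gene list with at least 3 measured genes and of all genes tested (rows), for all 79 members (grey circles), members without the deepest barcode (red diamonds), the regulatory gate (blue triangles) and the CD8 gate (green squares). The T cell receptor, costimulatory, regulatory and inhibitory lists move toward or below 0 without the deepest barcode. The MHC class II, cytotoxic and macrophage lists stay above 0.5, as does the naive and memory list, with 3 measured genes (0.79, and 0.99 without that barcode).

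The lists closest to T cell identity depended on the deepest barcode. Of 14 measured genes of the T cell receptor and its proximal signalling, 13 were higher in TMEM16F KO members (median log2 ratio 0.69), but 9 without that barcode (0.16). The median was -0.19 without members holding at least 3 cell cycle genes, which also left out that barcode. Trbc1, a receptor beta chain constant gene, was the exception with 2.79-fold (2.30-fold without), while Trac stood at 774 and 667 CPM (0.790-fold without). The 6 measured costimulatory receptors went from a median of 0.48 to -0.06, with Cd28, the main costimulatory receptor, 2.48-fold higher (1.77-fold without). The 7 measured inhibitory receptors and exhaustion genes went from 0.09, or -0.03 with the smaller denominator, to -0.48. Helper cytokines and ligands had a median of 0.83 over 12 measured genes of 19 and of 0.27 without the deepest barcode. Their median was -0.0074 without members holding NK, gamma delta or NKT markers, which also left out that barcode. Ano6, the gene knocked out in the engrafted cells, had 8 UMIs in 5 TMEM16F KO members and 1 UMI in 1 vector control member. The rule selects T cells, which are cells of the host, so that library comparison is no reading of the deletion. The deepest barcode, which also carried stroma transcripts, had 0 Ano6 UMIs, and the origin of those transcripts was not tested.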

How the data were processed

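Each library's deposited matrix holds whole UMI counts per gene and barcode for 34290 genes, not normalized. Per the file headers, Cell Ranger 8.0.0 made them. Libraries used 10x Genomics 3′ v3.1 chemistry, per the labels' protocols, and mm10 and Seurat 3.1.1 are named in the submitters' processing notes. Tissue was held in a protectant at 4 °C before processing, per the labels' protocols. The sources used here do not give the gene annotation or the use made of Seurat.

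The members and the gene lists were chosen with earlier results of these data known. UMIs were summed over members of each library (182257 in TMEM16F KO, 182936 in vector control) and divided by their total (CPM). A gene was measured with at least 50 UMIs over both libraries. Named genes were those at least 2-fold apart with a UMI in at least 5% of the members of the higher library, ranked by the ratio bound nearest to 1, the first 10 in each direction. Rule genes were left out, as were mitochondrial, ribosomal protein, haemoglobin and receptor variable genes. List genes and Ano6 were added as examples, and genes outside this rule were chosen after their values were seen. A floor is 3 counts. Cells were thinned to 1000 UMIs without replacement, and no member was shallower. Doublets were not removed in the main values. Scrublet's automatic threshold marked 0 barcodes in either library and so did not work, and the highest scores at 0.8% per 1000 barcodes formed an alternative. Ratios and intervals were tested on simulated Poisson counts around the pooled sums of the members. Those counts lack the uneven spread of UMIs over members, so coverage for genes held by few members was not tested. Gene positions are from GENCODE for GRCm38, matched by gene ID for all genes given a position, and promoters from RefSeq. Python 3.11.15, numpy 2.4.6, scipy 1.17.1, pandas 2.3.3, scanpy 1.11.5 and matplotlib 3.10.9 were used. Some results are not reported here.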

Additional observations from a re-analysis of the deposited data

How the results depend on the processing

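The values were recomputed under 11 alternative settings and 2 more chosen after seeing the data, which left out the deepest vector control barcode with UMIs summed or averaged over cells. The counts of genes at least 2-fold higher and lower in TMEM16F KO members, 151 and 81, became 81 and 39 as a mean over cells, 66 and 27 without the deepest barcode, and 68 and 28 with both changes. They were 39 and 16 without members holding NK, gamma delta or NKT markers, 32 and 12 without members holding 3 cell cycle genes, 59 and 27 at a minimum of 100 UMIs, and 483 and 270 at 20. The higher count was 100 with at least 2 Cd4 UMIs and 98 without Il2ra. Higher genes outnumbered lower ones in every alternative run. Lists with a median above 0 numbered 13 of 16, but 7 of 14 without NK, gamma delta or NKT markers and 6 of 13 without cycling members, where 11 of the 20 named genes stayed past 2-fold. The ratio of shares, 1.62, was 0.169 when members with over 2 UMIs of phagocyte transcripts were left out, which kept 1 TMEM16F KO and 5 vector control members, too few for the other values. Log2 values whose interval lay clear of 0 changed sign as follows. As a mean over cells, costimulatory receptors had a median of -0.060 and Ltb -0.14. Without the deepest barcode they had -0.063 and -0.088, and with both changes -0.11 and -0.19, with Cks1b at 0.024. Without NK, gamma delta or NKT markers, the medians were -0.0074 for helper cytokines, -0.032 for Th1 genes and -0.29 for costimulatory receptors, and the values 1.94 for Ube2c, -0.0074 for Tnfsf11 and -0.35 for Ltb. Without cycling members they were -0.057 for Th1 genes, -0.44 for costimulatory receptors, -0.72 for Ifng and -0.023 for Ltb. Without Il2ra, Lta stood at 1.53. Values near 0 changed sign in further alternatives: the medians of follicular helper, inhibitory and regulatory genes, and Ctla4, were -0.50, -0.50, -0.45 and -0.45 as a mean over cells and -0.36, -0.48, -0.48 and -0.48 without the deepest barcode, and Gata3 (-0.03) was 0.89 without Il2ra. Leaving out members with NK, gamma delta or NKT markers, or cycling members, also left out the deepest barcode. The NK markers of vector control members summed to 13 UMIs with that barcode and 6 without. It held 147 Ube2c, 37 Birc5 and 21 Top2a UMIs. Changes under those settings thus include its removal. The cause of the changes was not tested beyond the fewer members kept. None of 59 values moved beyond its interval, or for a count by over 1.5 times, with a minimum of 2000 UMIs, the doublet filter or the smaller denominator. The doublet filter left out 3 TMEM16F KO members and 0 vector control members, and so kept the deepest barcode. That setting therefore could not show the effect of the deepest barcode. No paired analysis was possible because each group has 1 library. Depth limits genes with few UMIs: absence of a UMI in 27 or 52 cells does not show absence of a transcript.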
